A study of Mus musculus with 34 samples.

Results

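Jun-only loci are the places in the genome of resting macrophages where ChIP-seq found a peak of Jun but none of ATF3 or JunD. They were found by joining the vehicle (Veh) peaks of these 3 monomers in C57Bl/6 cells wherever 2 peaks shared at least 1 bp, and by keeping the loci with a peak in the Jun list alone. There were 2182 of them among 15535 loci with Jun (14.0%, 95% Wilson interval 13.5 to 14.6) and among 29552 loci with any of the 3 monomers (7.38%). The loci were chosen by their peaks in these 3 Veh lists, so the absence of ATF3 and JunD there is their definition and no finding. What can be learned lies in the other lists. By the same rule every other Jun locus, used below for comparison, had ATF3 or JunD at rest.

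AP-1 binds DNA as a dimer of basic leucine zipper proteins. Jun can pair with itself, with the other Jun proteins, with the Fos proteins or with ATF3, and a Fos protein needs a partner such as Jun to bind. The usual AP-1 sites are the TPA response element (TRE) and the longer cyclic AMP response element (CRE). In macrophages AP-1 takes part both in the resting enhancer landscape, beside PU.1 and C/EBP proteins, and in the response to bacterial lipid sensed by TLR4.

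The study compared AP-1 monomers in thioglycollate elicited macrophages (TGEMs), primary macrophages recruited to the peritoneum of male mice. TGEMs came from mice labelled C57Bl/6EiJ, from Balb/cJ mice and from mice labelled PPARgKO, whose sample titles read C57Bl6-PPARgKO. The labels do not say which cells of the knockout lost PPARγ, a lipid-sensing nuclear receptor. The cells received PBS (Veh) or Kdo2 lipid A (KLA), a TLR4 agonist, for 1 h, and knockout cells received Veh only. The lists cover ATF3, Jun, JunD, Fos, FosL2 (labelled Fra2), JunB, PU.1 and CEBPα in C57Bl/6 with both treatments, PPARγ in C57Bl/6 with Veh, the same monomers except FosL2 in Balb/c, and ATF3, Jun and JunD in the knockout. Each condition had 1 list that joined its replicate experiments, so the intervals given here count loci only, no replicate error could be set beside a difference, and no test was run.

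The list sizes bear on every share below. The C57Bl/6 Jun Veh list held 15548 peaks, against 17480 for Jun with KLA, 10957 and 11317 for Jun in Balb/c with Veh and KLA, and 4290 for Jun in the knockout. The ATF3 and JunD lists were larger, with 19355 to 36821 peaks each. The Balb/c list of Fos with Veh was empty and that of JunB with Veh held 9 peaks, none at a Jun-only locus. The defining macrophage genes Csf1r, Adgre1, Cd68, Itgam and Spi1 had PU.1 and Jun Veh peaks within 5 kb at 5 of 5, and Jun-only loci lay within that distance at 3 of them (Csf1r, Itgam and Spi1). Of 22 marker genes of B, T and mast cells, neutrophils, eosinophils, mesothelium and endothelium, 6 had a Jun peak that near and 0 had a Jun-only locus. PU.1 lay that near at 3 of 4 B cell, 1 of 3 T cell, 2 of 5 neutrophil and 1 of 2 mast cell genes. The same held for 1 of 2 eosinophil, 1 of 4 mesothelium and 2 of 2 endothelium genes. Jun-only loci are 14.0% of all Jun loci, so 0 at 6 genes with a Jun peak sets no contrast.

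3 of the strongest Jun-only loci are shown first, as the central 200 bp of the Jun peak on the plus strand of GRCm38 (the same build as mm10), because they hold AP-1 sites and carried other AP-1 monomers elsewhere. Capitals mark the TRE (TGACTCA, or TGAGTCA when read from the other strand) and the PU.1 core (ACTTCCT or AGGAAGT). The Tmem230 window is chr2:132212090-132212289, intergenic and 35465 bp downstream of the TSS of Tmem230, which encodes a membrane trafficking protein. The Egr2 window is chr10:67483466-67483665, intergenic and 51910 bp upstream of Egr2, a zinc finger transcription factor. The Rps3 window is chr7:99505762-99505961, intergenic and 22123 bp upstream of the gene of this ribosomal protein.
Tmem230: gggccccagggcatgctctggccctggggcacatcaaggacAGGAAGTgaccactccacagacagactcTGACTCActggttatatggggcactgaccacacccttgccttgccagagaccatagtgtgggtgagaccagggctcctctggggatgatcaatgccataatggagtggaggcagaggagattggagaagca
Egr2: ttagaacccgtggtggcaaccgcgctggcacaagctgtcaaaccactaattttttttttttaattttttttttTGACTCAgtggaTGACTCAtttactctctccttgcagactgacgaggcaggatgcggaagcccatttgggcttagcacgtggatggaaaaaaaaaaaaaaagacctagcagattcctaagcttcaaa
Rps3: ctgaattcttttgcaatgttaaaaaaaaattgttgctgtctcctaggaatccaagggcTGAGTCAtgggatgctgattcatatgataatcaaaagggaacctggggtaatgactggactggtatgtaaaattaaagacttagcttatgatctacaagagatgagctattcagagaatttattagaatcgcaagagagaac
The Egr2 locus holds 2 TREs, the Tmem230 locus a TRE and a PU.1 core, and the Rps3 locus 1 TRE.

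Jun-only loci were weak Jun peaks. Their Jun Veh count, the number of reads the authors deposited for a peak, ran from 11 to 61 with a median of 16 (quartiles 14 and 19), against 12 to 127 with a median of 28 (quartiles 21 and 39) at the 13353 other Jun loci. The median Jun-only locus stood at percentile 12.9 of the Jun list by count and the median of the other Jun loci at 57.2. A count of at least 20 was reached by 491 (22.5%) of the Jun-only loci and by 71.9% of all Jun loci, a count of at least 30 by 49, and a count of at least 40 by 10. The scaled IDR, a score of how well a peak repeats between replicate experiments, was at its cap of 1000 in 247 (11.3%) of the Jun-only loci and in 66.9% of the others. The low end of the list thus holds most members, yet the range reaches percentile 94.7, at an intergenic locus 5583 bp upstream of Lgals3, the galectin-3 gene. Loci with ATF3 alone or JunD alone at rest were also low in their own Veh lists. Their median counts were 39 (ATF3 list median 56) and 35 (JunD list median 50).

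The nearest ATF3 or JunD Veh peak lay a median of 6486 bp away (quartiles 1487 and 20528). It was closer than 100 bp at 73 loci (3.35%), closer than 1000 bp at 443 (20.3%) and at least 10000 bp away at 877 (40.2%). Just past the limit of the rule were 11 Jun-only loci within 10 bp of such a peak, with Jun counts of 13 to 34 (median 20), and just inside it 6 shared Jun peaks with an overlap of 10 bp or less, with counts of 12 to 30 (median 20.5). Among the strongest loci, the gap was 48 bp at Tmem230 and 97 bp at Lgals3 but 3832 bp at Egr2 and 21947 bp at Rps3.

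Few Jun-only loci carried a Jun peak in any other condition. After KLA, 360 (16.5%, 15.0 to 18.1) had one, against 64.5% of the other Jun loci and 57.7% of all Jun loci. In Balb/c, 204 (9.35%, 8.20 to 10.6) had Jun with Veh, against a background of 48.6%, and 228 (10.4%) had Jun with KLA, against 39.8%. In the knockout 23 (1.05%, 0.703 to 1.58) had Jun, against 21.8%. All these shares lay far outside the intervals of the other Jun loci (55.0% in Balb/c with Veh, 44.6% with KLA and 25.2% in the knockout). A Jun peak in at least 1 of these 4 lists was present at 577 Jun-only loci (26.4%) and at 80.6% of the other Jun loci, and a Jun peak in all 4 at 2 loci and 14.1%.

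Loci with ATF3 alone or JunD alone at rest, without a Jun peak, also had Jun elsewhere. Among 5931 loci with ATF3 alone and 3257 loci with JunD alone at rest, 21.8% (20.8 to 22.9) and 19.1% (17.8 to 20.5) had a Jun peak after KLA, beside the 16.5% (15.0 to 18.1) of the Jun-only loci. In Balb/c with Veh the shares were 11.7% (10.9 to 12.5) at ATF3-only and 9.12% (8.18 to 10.2) at JunD-only loci beside 9.35%, and the intervals of JunD-only and Jun-only loci overlapped. In Balb/c with KLA they were 13.3% and 11.6% beside 10.4%, and in the knockout 2.24% and 2.43% beside 1.05%. Jun-only loci were below ATF3-only loci in all 4 lists, also with other rules of overlap, which were added after seeing the data. The order against JunD-only loci turned in 2 of the lists when only the strongest 50% of a Jun list was kept (6.51% against 4.76% with KLA in C57Bl/6, and 3.71% against 2.98% with KLA in Balb/c), so no order of these 2 groups is given.

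**Figure D1:**
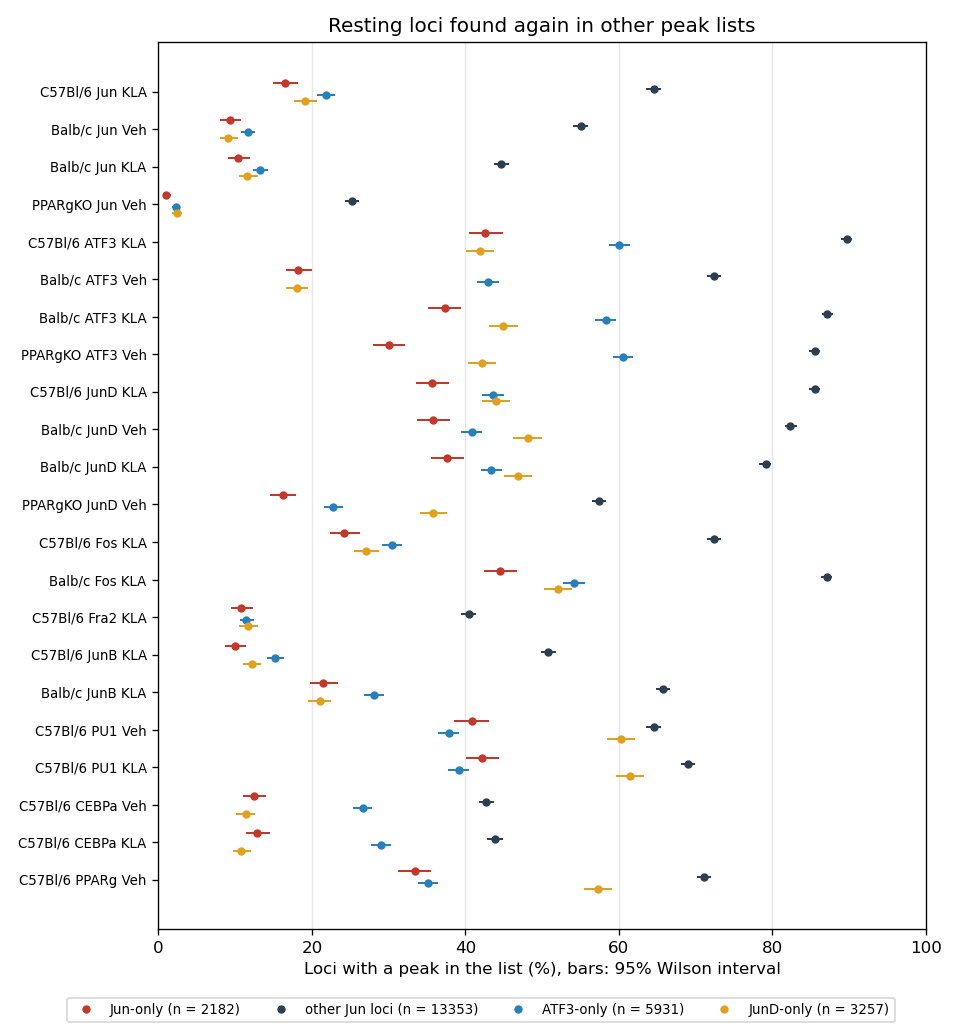
Share of loci with a peak in each of 22 other lists (x axis, percent; bars, 95% Wilson intervals) for Jun-only loci, the other Jun loci, ATF3-only loci and JunD-only loci. The Jun-only points lie beside those of the ATF3-only and JunD-only loci in the Jun lists (16.5%, 21.8% and 19.1% after KLA) and far below the other Jun loci (64.5%).

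ATF3 and JunD, absent at rest by the rule, were found at Jun-only loci more often than Jun itself. The other Jun loci had the same order, with ATF3 at 89.7%, JunD at 85.5% and Jun at 64.5% after KLA. At Jun-only loci, ATF3 after KLA was at 930 (42.6%, background 83%) and JunD after KLA at 779 (35.7%, background 78.5%). In Balb/c with Veh, ATF3 was at 398 (18.2%, background 64.8%) and JunD at 781 (35.8%, background 75.8%), and with KLA at 813 (37.3%, background 80.1%) and 821 (37.6%, background 73.2%). In the knockout ATF3 was at 655 (30.0%, background 77.7%) and JunD at 354 (16.2%, background 51.6%). In all, 1657 Jun-only loci (75.9%, 74.1 to 77.7) had an ATF3 or JunD peak in at least 1 list other than those that chose them. This was the lowest share of the groups compared, with 99.3% at the other Jun loci, 92.6% at ATF3-only and 90.6% at JunD-only loci. Those groups had ATF3 or JunD at rest by the rule. The ATF3 and JunD lists are larger than the Jun lists, which was not corrected for, and every share given with a background was below it.

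Jun stood alone again at about 1% of the loci or fewer, and at under 1% of the other Jun loci. In Balb/c with Veh, 18 of the 2182 loci (0.825%) had Jun without ATF3 and JunD, while 712 (32.6%) had ATF3 or JunD without Jun, 433 of these JunD alone and 176 both, and 1266 (58.0%) had none of the 3. The same shares at the other Jun loci were 0.756% for Jun alone, 33.9% for ATF3 or JunD without Jun and 11.1% for none. The Jun-only loci differed from them mainly in the last of these. High shares with none were not limited to Jun-only loci, with 39.1% at ATF3-only and 46.3% at JunD-only loci. In the knockout 12 Jun-only loci had Jun alone, 473 ATF3 alone, 174 JunD alone, 173 ATF3 and JunD, and 1339 (61.4%) none. None was found at 10.2% of the other Jun loci, 33.2% of ATF3-only and 40.4% of JunD-only loci. After KLA in C57Bl/6, 22 Jun-only loci (1.01%, against 0.337% of the other Jun loci) had Jun without ATF3 and JunD. All 3 were at 299 of them, and ATF3 and JunD without Jun at 370. Of the 360 with Jun after KLA, 338 (93.9%, 90.9 to 95.9) also had ATF3 or JunD, below the 99.5% of the other Jun loci and the 97.3% of ATF3-only loci and beside the 90.7% of JunD-only loci. Jun was the only one of the 6 monomers at 14 Jun-only loci (0.642%), at 0.225% of the other Jun loci and at 1.29% of JunD-only loci.

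**Figure D2:**
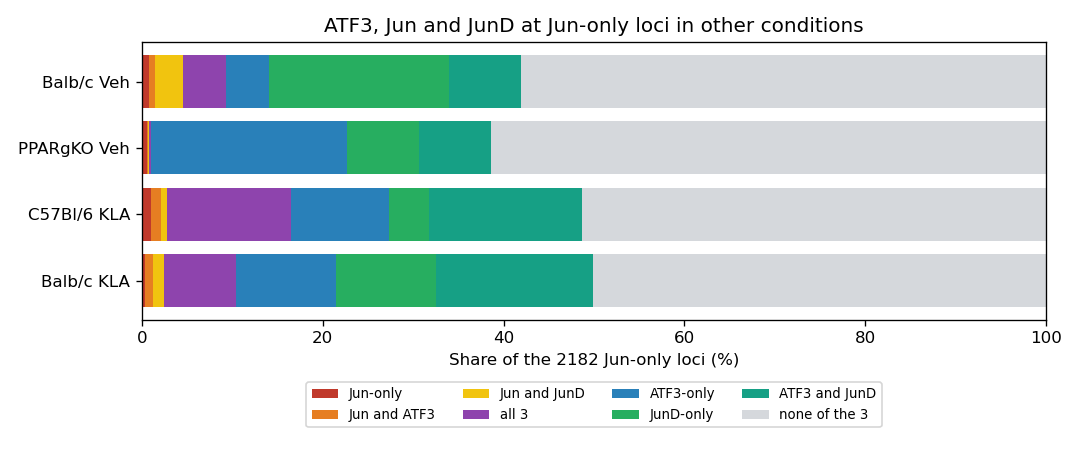
Shares of the 2182 Jun-only loci (x axis, percent) by which of ATF3, Jun and JunD had a peak in each of 4 other conditions; colours stand for the combinations. Jun alone takes 0.367% to 1.01% of the loci in each row (0.15% to 0.756% at the other Jun loci, not drawn), and the bar for none of the 3 is the widest (50.1% to 61.4%).

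The remaining monomers, whose lists are longer after KLA, were also less frequent than at Jun loci at large. Fos after KLA was at 529 Jun-only loci (24.2%, background 65.6%), FosL2 at 236 (10.8%, background 36.2%) and JunB at 217 (9.95%, background 45.1%). In Balb/c after KLA, Fos was at 972 (44.5%, background 81.1%) and JunB at 470 (21.5%, background 59.5%). With Veh, Fos was at 62 (2.84%, background 5.83%), FosL2 at 80 (3.67%, background 24.6%) and JunB at 6 (0.275%, background 1.95%), all from short lists of 463 to 5329 peaks. Any of the 6 monomers was found after KLA at 1116 Jun-only loci (51.1%), against 93.9% of the other Jun loci. It was found at 66.3% of ATF3-only and 58.8% of JunD-only loci.

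Within bands of Jun count the difference from the other Jun loci mostly kept its direction. All Jun loci were put into 4 bands of about equal size by Jun Veh count (up to 19, to 25, to 37 and above), and Jun-only loci were below the other Jun loci in 4 of 4 bands for 24 of 25 lists, the exception being Fos with Veh (1 of 4). The bands held 1691, 385, 92 and 14 Jun-only loci. Counts still differed within a band, and the top one ran from 38 to 61 at Jun-only and from 38 to 127 at other Jun loci. For Jun after KLA the Jun-only shares from the lowest to the highest band were 12.6%, 23.4%, 52.2% and 64.3%, and those of the other Jun loci 33.9%, 49.1%, 71.2% and 92.1%. For Jun in Balb/c with Veh they were 6.45%, 13.5%, 38.0% and 57.1% against 21.8%, 37.9%, 60.4% and 87.6%. The presence of Jun thus rose with the count in both sets, and the intervals in the top band were wide (38.8% to 83.7% for Jun after KLA). In the knockout the Jun-only share was between 0 and 2.17% in every band while that of the other Jun loci went from 4.39% to 55.7%.

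**Figure D3:**
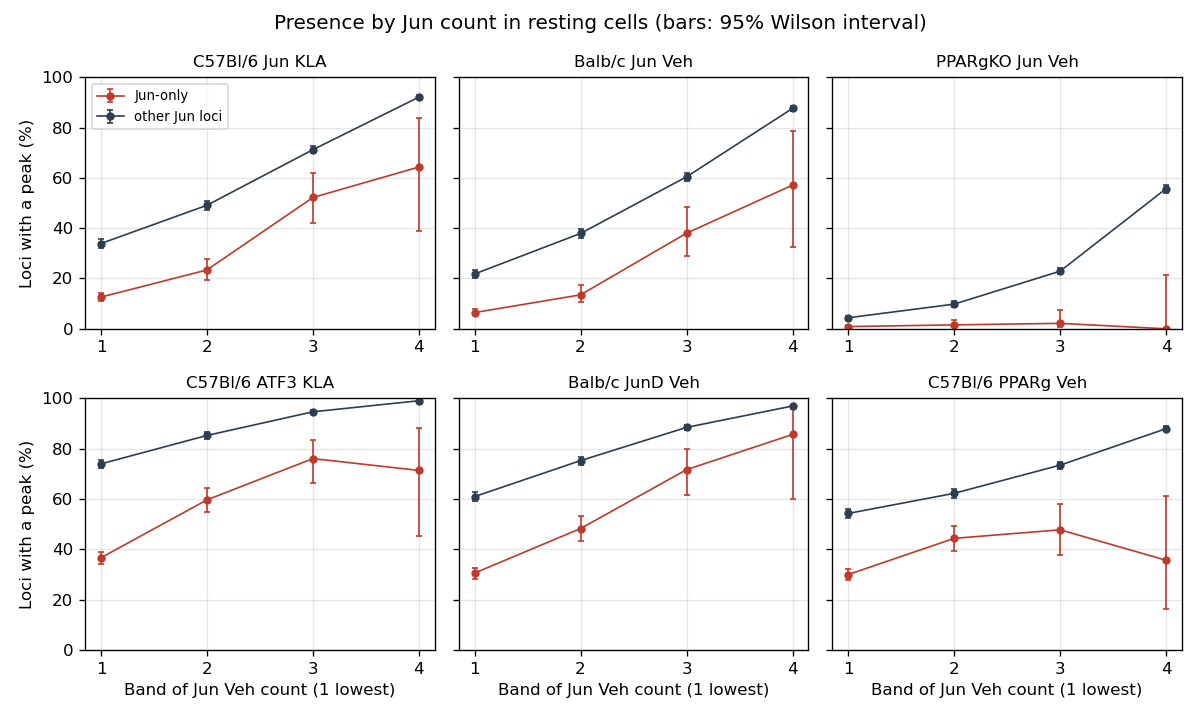
Share of loci with a peak in 6 other lists (y axis, percent) against the band of the Jun Veh count (x axis, 1 the lowest) for Jun-only and other Jun loci; bars are 95% Wilson intervals. The Jun-only line runs below the other line in each panel (12.6% to 64.3% against 33.9% to 92.1% for Jun after KLA), with only 14 Jun-only loci in the highest band.

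At the Jun-only loci that had Jun elsewhere, its peaks were also lower than those of the other Jun loci. Their median percentile by count was 39.9 in the Jun KLA list (65.0 at the other Jun loci), 23.3 in Balb/c with Veh (63.4), 38.4 in Balb/c with KLA (65.6) and 16.4 in the knockout (59.5). The counts ran from 16 to 100 after KLA, around a median of 27, and from 12 to 24 in the knockout, around a median of 14. Counts are not scaled to library size, so percentiles rather than counts were set side by side.

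The strongest Jun-only loci were mostly AP-1 sites in the other lists. Of the 12 with the highest Jun count, 9 had Jun after KLA, 8 had Jun in Balb/c with Veh and 0 had Jun in the knockout, while 11 had JunD and 9 had ATF3 in Balb/c with Veh. The Tmem230 locus (Jun Veh count 54) had Jun counts of 65 after KLA, 75 in Balb/c with Veh and 69 in Balb/c with KLA, and an ATF3 count of 222 and a JunD count of 557 after KLA. The Egr2 locus (Jun 40) had Jun counts of 45, 32 and 30 in the same 3 lists. Both had FosL2 and Fos after KLA, and neither had PPARγ.

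The Rps3 locus had a Jun count of 46 at rest, 44 after KLA and 32 in Balb/c with Veh, and it had JunD (66) and ATF3 (50) in Balb/c with Veh although no ATF3 or JunD Veh peak of C57Bl/6 lay within 21947 bp. A locus in an intron of Sipa1l3, a gene of a Rap GTPase activating protein, was the most widely marked member, with peaks in 21 other lists. Its Jun count was 40 at rest, 43 after KLA, 41 in Balb/c with Veh and 37 with KLA, its PU.1 Veh count was 1142, and its nearest ATF3 or JunD Veh peak was 253612 bp away. ATF3 (39) and JunD (60) were both present there in the knockout, and Jun was not. A locus at the promoter of the olfactory receptor gene Olfr433 (Jun 38) had peaks in 18 other lists, with a Jun count of 71 and a JunD count of 707 after KLA but no ATF3 peak after KLA in C57Bl/6.

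Some members, a few of them strong, had little or nothing in the other lists. The Lgals3 locus, with the highest count of all (61), had no Jun peak in any other list, and its 3 other peaks were JunD in Balb/c with Veh (88), and PU.1 (79) and CEBPα (86) after KLA. A peak in a coding exon of Fos (chr12:85476329-85476530, Jun 39) had no peak in any other list, and 2 peaks within the Jun gene itself, in a UTR exon (36) and in the coding exon (20), had JunD in Balb/c with Veh (31 and 22) and nothing else. The Ctsb gene of cathepsin B, a lysosomal protease, held an intronic peak (Jun 23) with 0 other lists, unlike its exonic one (38) with 9.

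Loci without a peak in any other list numbered 261 (12%, 10.7 to 13.4) among the Jun-only loci, 9 (0.0674%) among the other Jun loci, 172 (2.90%) among the ATF3-only and 45 (1.38%) among the JunD-only loci. Their median Jun count was 14, against 17 for the Jun-only loci found in another list. They held a TRE in 16.5% (12.5 to 21.5) and lay at promoters in 9.58%, against 20.3% and 23.3% for the rest. The median Jun-only locus was present in 5 other lists and the median of the other Jun loci in 15.

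PPARγ, PU.1 and CEBPα were each less frequent at Jun-only loci than at Jun loci at large. PPARγ, which drives lipid storage genes in macrophages, was at 728 (33.4%, background 65.8%), close to the 35.1% of ATF3-only loci and below the 57.3% of JunD-only loci. PU.1, the factor that defines the myeloid lineage, was at 890 with Veh (40.8%, background 61.2%) and at 921 with KLA (42.2%, background 65.2%). CEBPα was at 271 with Veh (12.4%, background 38.5%) and at 282 with KLA (12.9%, background 39.5%). With Veh, PU.1 was at 37.8% of ATF3-only and 60.3% of JunD-only loci, and CEBPα at 26.6% and 11.4%. At least 1 of the 3 was present with Veh at 1326 Jun-only loci (60.8%) and at 90.4% of the other Jun loci. It was present at 65.9% of ATF3-only and 82.9% of JunD-only loci, so low shares were not limited to Jun-only loci.

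In the knockout, Jun-only loci with a PPARγ peak in C57Bl/6 had ATF3 and JunD more often than those without, and Jun at very few loci of either kind. Of the 728 with PPARγ, 11 (1.51%, 0.846 to 2.69) had Jun in the knockout, and of the 1454 without it 12 (0.825%, 0.473 to 1.44), with intervals that overlapped. ATF3 was there at 37.6% of those with PPARγ and 26.2% of those without, and JunD at 26.0% and 11.3%. At the other Jun loci the same split gave 89.4% and 76.0% for ATF3, 65.6% and 37.3% for JunD and 30.7% and 11.7% for Jun, so the direction was the same there. The loci with PPARγ had a median Jun count of 17 against 16 without, and 38.5% of them lay at promoters against 13.2%.

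Among the 5 Jun-only loci with PPARγ and the highest Jun counts, the promoter of Ptrh2, the gene of a mitochondrial peptidyl-tRNA hydrolase, had a PPARγ count of 74 and a PU.1 Veh count of 207 beside its Jun count of 45, and Jun (25) only after KLA among the other Jun lists. A locus inside an intron of Apbb1ip had PPARγ at 48 and Jun at 42. At genes of lipid handling, a locus 34134 bp downstream of the TSS of Lpl, the lipoprotein lipase gene, had the highest PPARγ count of these named loci (195) with Jun at 30, and the promoter of Acsl1, which activates fatty acids, had PPARγ at 147 with Jun at 21. A locus 17107 bp upstream of Pparg itself had PPARγ at 60, Jun at 26, Jun after KLA at 32 and Jun in Balb/c with Veh at 23. The cholesterol exporter gene Abca1 had a distal locus with PPARγ at 87 and Jun at 25. None of these 4 genes had a Jun peak at its named locus in the knockout.

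2 groups of members had the most Jun elsewhere. Of the loci with Jun after KLA, in Balb/c with Veh and in the knockout, the strongest was at the promoter of Klf6, an immediate early zinc finger factor, with Jun counts of 35 at rest, 35 after KLA, 42 and 46 in Balb/c and 24 in the knockout, and with ATF3 and JunD in the knockout at 66 and 73. A locus in an intron of Ppp1r9b, which holds a TRE, had Jun at 13 at rest and 28, 28, 46 and 13 in the other lists, so that it was in all 4 although its resting count was near the floor of the list. The highest Jun counts after KLA were 100 at an intergenic locus nearest to A730009L09Rik (35 at rest) and 97 at a locus 11217 bp upstream of Tnfaip3 (21 at rest), a gene that limits NFκB signalling. At the Tnfaip3 locus all 6 monomers had peaks after KLA (ATF3 291, JunD 817, Fos 140, FosL2 121, JunB 88), and Jun was at 82 in Balb/c with KLA and absent there with Veh.

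Jun-only loci held a TRE less often than other Jun loci. Within the central 200 bp, 433 of 2181 loci with sequence (19.9%, 18.2 to 21.6) had TGACTCA on either strand, against 34.3% of the other Jun loci, 25.8% of all resting loci, 17.0% of ATF3-only and 14.4% of JunD-only loci. The CRE (TGACGTCA, which reads the same on both strands) was in 1.47% against 1.83% of all resting loci, and the median TRE lay 26 bp from the peak centre against 22 bp at the other Jun loci. The PU.1 core was in 17.2% (all resting loci 21.5%), 1 of 6 C/EBP sites in 4.59% (7.20%), the Runx core TGTGGTT in 6.56% (7.30%), and the nuclear receptor half-site AGGTCA in 15.7% (16.5%). The C/EBP sites were TTGCGCAA, TTGCATAA, TTGCGTAA, TTGCACAA, TTGTGCAA and TTGTGTAA, and 2 half-sites in the same direction with 1 base between them were in 0 Jun-only loci and in 0.0406% of all resting loci. Of the promoter motifs, Sp1 (CCCCGCCC) was in 6.24% (5.23%), ETS (CCGGAAG, of which the last 5 bases are also in the PU.1 core) in 4.77% (4.51%), AGCCAAT, the site of NF-Y, in 3.16% (2.95%) and the E-box TCACGTG in 2.89% (3.5%). All were searched on both strands.

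The loci with and without a TRE differed in their partners, a split seen in the data before it was tabulated and given as a description. With a TRE, Fos after KLA was at 50.1% of Jun-only loci and without one at 17.8%, ATF3 after KLA at 64.4% and 37.2%, JunD after KLA at 56.4% and 30.6%, and Jun after KLA at 29.6% and 13.3%. PU.1 with Veh went the other way, at 22.2% with a TRE and 45.4% without, as did PPARγ (21.2% and 36.3%) and CEBPα (3.46% and 14.6%). The other Jun loci had the same directions for Fos after KLA (92.0% and 62.1%) and PU.1 (54.4% and 69.8%), with PPARγ at 69.8% and 71.7%. The Egr2, Tmem230 and Rps3 loci printed above hold a TRE, and all 3 had Fos, ATF3 and JunD after KLA. They were picked for their AP-1 sites and other AP-1 monomers, so they say nothing about this split. With Veh, Egr2 and Tmem230 also had PU.1, and Rps3 had PPARγ and CEBPα but no PU.1. The Jun-only loci with a TRE lay at promoters in 6.00% and those without in 25.5%.

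**Figure D4:**
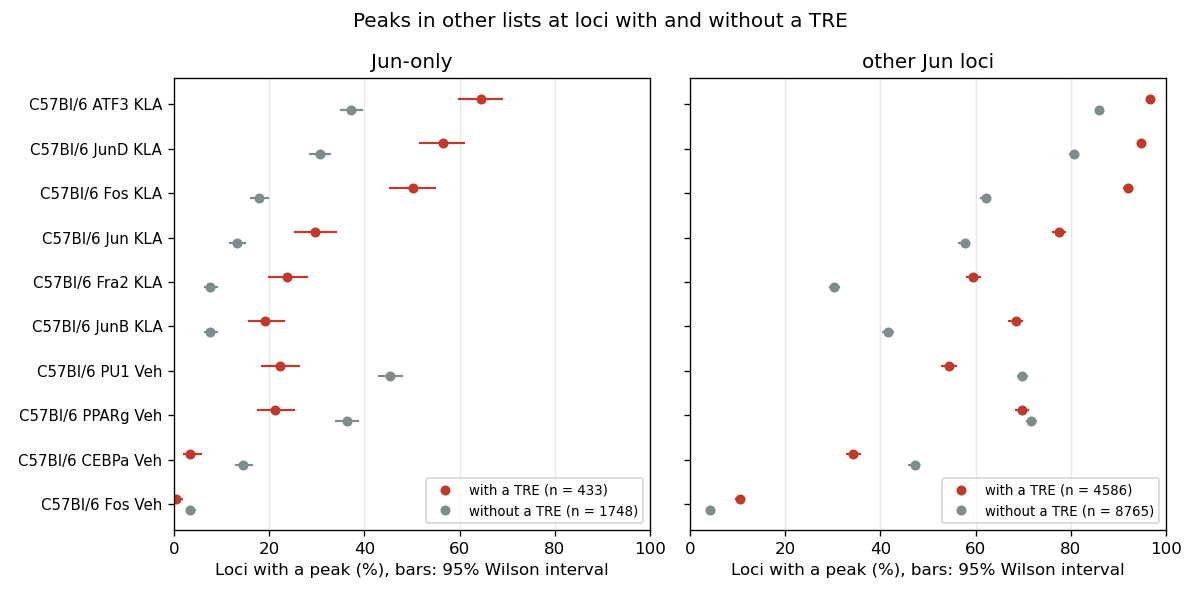
Share of loci with a peak in 10 C57Bl/6 lists (x axis, percent; bars, 95% Wilson intervals) with and without a TRE, for Jun-only loci (left) and the other Jun loci (right). Among Jun-only loci the AP-1 lists after KLA are higher with a TRE (Fos 50.1% against 17.8%) and PU.1, PPARγ and CEBPα with Veh are higher without one (PU.1 45.4% against 22.2%).

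By position, 472 Jun-only loci (21.6%, 20.0 to 23.4) lay within 1 kb of the TSS of a protein-coding gene of GENCODE, against 15.0% of the other Jun loci, 17.2% of ATF3-only, 37.7% of JunD-only and 19.2% of all resting loci. A further 822 (37.7%) were in introns, 792 (36.3%) intergenic and 30 (1.37%) in coding exons, the last against 0.779% of the other Jun loci. The median distance to a TSS was 11650 bp, against 14841 bp at the other Jun loci. Their windows had a median GC content of 47.0% against 48.5%, and a median of 10.5% of soft-masked repeat bases against 5.00%.

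Jun-only loci at promoters differed from the rest of the set in their partners and motifs. PPARγ was at 280 of 472 (59.3%, 54.8 to 63.7) and at 26.2% of the loci elsewhere, while PPARγ at the other Jun loci was at 77.0% of promoters and 70.0% elsewhere. Fos with Veh was at 56 of them (11.9%) and at 6 of 1710 loci elsewhere (0.351%), and at the other Jun loci at 10.4% and 5.60%. A TRE was in 5.51%, Sp1 in 23.5% and ETS in 15.5% of the Jun-only promoters, against 23.8%, 1.46% and 1.81% of the Jun-only loci elsewhere. The other Jun loci had the same directions, with 19.0%, 18.6% and 14.1% at promoters and 37.0%, 1.5% and 2.08% elsewhere. After KLA, Jun was at 11.4% and Fos at 13.3% of the Jun-only promoters, against 17.9% and 27.3% of the Jun-only loci elsewhere. Again the other Jun loci had the same direction (Jun 55.8% at promoters and 66.0% elsewhere, Fos 50.9% and 76.2%). The promoters of Vim, the gene of the intermediate filament vimentin (PPARγ 81, Jun 22), and of Acsl1 and Ptrh2 are examples with PPARγ, and the promoter of Zyx, the gene of a focal adhesion protein (Jun 22), is one without.

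The Jun-only loci lay nearest to 1830 genes, 29% of the 6308 genes nearest to any Jun locus. Of these 1556 had 1 Jun-only locus and 274 had at least 2. Cited2, the gene of a CBP-binding transcriptional regulator, and Zeb2, a zinc finger factor of macrophage identity, had 7 each among 18 and 23 Jun loci, and Nsmce2, of the SMC5/6 complex, and Prdm1, which encodes Blimp-1, had 6 each among 12 and 15. The farthest lay 1224379 bp from the TSS of Cited2 and 1330645 bp from that of Zeb2, so the nearest gene is only a name for them.

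Counted by gene, against the background of 29%, 7 of the 12 AP-1 subunit genes with any Jun locus had a Jun-only one (Jun, Junb, Fos, Fosl2, Atf3, Atf4 and Batf2), as did 14 of 24 lineage transcription factors, 12 of 21 matrix and protease genes and 7 of 15 regulators of NFκB and cytokine signalling. Further lists had 7 of 18 genes of MAPK feedback and the immediate early response, 6 of 16 lipid handling genes, 5 of 13 of cholesterol efflux and uptake, 10 of 28 of adhesion and cytoskeleton and 3 of 9 of iron, heme and oxidative stress. Few of the cytokine and chemokine genes (2 of 16, Il27 and Csf1) and of the macrophage surface genes (3 of 19, Csf1r, Fcgr1 and Cd9) had one, and 0 of 5 genes of other peritoneal cell types. Counted by locus, several lists were close to the 14.0% of all Jun loci, with 9 of 64 at the AP-1 subunit genes, 29 of 209 at the lineage factors, 9 of 65 at the NFκB regulators and 10 of 70 at the lipid genes. The matrix genes had 16 of 91, the MAPK genes 12 of 146, the surface genes 4 of 72 and the cytokine genes 2 of 51. Genes with many Jun loci have more chances to hold a Jun-only one, so the counts by gene give no order of the lists. Beside the Fos and Jun loci above, Junb had a locus with a TRE 3639 bp upstream (Jun 26). It had JunD (40), ATF3 (21) and Jun (26) in Balb/c with Veh and no AP-1 peak after KLA in C57Bl/6. In Balb/c after KLA it had ATF3 (83), Jun (37), Fos (161), JunB (56) and JunD (102). ATF3 (24) was also there in the knockout. Bhlhe40, a transcription factor gene, had one with Jun at 36 at rest and 31 after KLA, when ATF3 (154), JunD (412), Fos (45), FosL2 (30) and JunB (42) were also there.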

How the data were processed

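The data are ChIP-seq peak lists of TGEMs, 30 lists for 34 samples, since 4 input samples had no list. Alignment was by Bowtie2 to mm10, with Balb/c reads placed on a genome of that strain and their positions returned to mm10. The authors ran the HOMER peak caller with input as control, and left out whatever reached an IDR of 0.05 across replicates. The deposited count of each peak is a whole number not scaled to library size, and how replicates enter it is not given in the sources used here. The deposited score is the scaled IDR, from 540 to 1000. Summed counts ran from 9196 to 13809143 in the 28 lists with more than 9 peaks. How deeply each library was sequenced was not analysed here.

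Peak starts and ends were read as half-open intervals. Each locus was represented by its strongest Jun peak (else ATF3, else JunD), and present in another list meant an overlap of at least 1 bp. Shares have 95% Wilson intervals, which cover counting of loci only and take loci as independent. Sequence came from RefSeq GRCm38.p6 and genes from GENCODE vM21. 1 member, on a sequence outside the main chromosomes, had no window. Named loci were the 12 highest by Jun Veh count, the 5 highest with PPARγ, the 5 highest with Jun in KLA, Balb/c and knockout, the 5 highest by Jun KLA count, genes with the most members, and members at listed genes. The Jun loci inside Jun and Fos and those of Ctsb come under the listed genes. The members, the gene lists and the motifs were chosen with earlier results of these data known. Overlap and motif code was tested on simulated data. Python 3.11.15, numpy 2.4.6, pandas 2.3.3, scipy 1.17.1 and matplotlib 3.10.9 were used. Alternatives changed the overlap rule, the thresholds on IDR and count, the motif window and the definition of a promoter.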

Additional observations from a re-analysis of the deposited data

How the results depend on the processing

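No paired analysis was possible because each condition had 1 list and the result comes from no test, and for the same reason no replicate could be left out. Under 7 alternatives for each of 25 lists, Jun-only loci were below the other Jun loci in 175 of 175 cases. These cases share loci and are not independent. The other Jun loci had ATF3 or JunD at rest by the rule, so part of this order is built in. The number of Jun-only loci was 606 with a scaled IDR of at least 830, 2582 with centres within 100 bp and, in a choice made after seeing the data, 2181 with closed intervals. The following shares are for Jun after KLA, Jun in Balb/c with Veh, PPARγ, PU.1 with Veh and ATF3 after KLA, in that order. With centres within 100 bp they were 14.3%, 8.02%, 26.7%, 34.6% and 38.7%. With the strongest 50% of the other list they were 6.51%, 1.70%, 14.3%, 22.6% and 17.4%. With a scaled IDR of at least 830 they were 29.5%, 16.7%, 40.4%, 50.3% and 59.6%. In the upper 50% by Jun count they were 24.0%, 14.2%, 38.9%, 47.1% and 54.1%. At loci 3 kb or more from the TSS of any protein-coding gene and outside such genes they were 18.5%, 10.8%, 26.5%, 43.5% and 49.9%. With 50% reciprocal overlap those that left their interval were Jun after KLA at 14.9%, PPARγ at 28.4%, PU.1 at 35.2% and ATF3 after KLA at 39.3%. Jun in the knockout went from 1.05% to 0.137% with the strongest 50% of its list and to 1.65% with the IDR threshold. The TRE share was 14.8% in the central 100 bp. Promoters held 30.0% within 3 kb and 27% with the TSSs of all annotated genes. By rank, the median of the Jun-only loci was percentile 12.9. Taking the whole merged locus in place of the Jun peak, also chosen after seeing the data, moved none of the shares out of their intervals. A Jun-only locus is merged from Jun peaks alone, so this choice could hardly move them. Each condition's single list and the unscaled counts limit what a missing peak means, since a site under the threshold is not told apart from an unbound one.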
